A study of Mus musculus with 7 samples.

Results

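The transcripts described here belong to 44 genes of fatty acid uptake, activation and beta-oxidation, taken by gene symbol from a written list. All 44 had an entry among the 20927 kept from the count table, and all 44 passed the filter on low counts. RNA was sequenced from the left ventricles of 3 wild-type (WT) mice and of 4 mice homozygous for the A178D missense change in titin, the giant spring protein of the sarcomere. Strain C57BL/6J was given for both groups, each heart gave 1 library of polyadenylated RNA, and age and sex are not given in the sources used here. The allele was edited into embryonic stem cells of a related substrain together with silent base changes, and the line was then backcrossed, so that the missense change, the silent changes and any linked DNA of the stem cells cannot be told apart. After repeated entries were dropped, the libraries held between 33080675 counts (A178D 4) and 54245530 counts (WT 3).

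The adult heart draws most of its energy from long-chain fatty acids. These enter the cell through Cd36 and fatty acid transport proteins, are carried by binding proteins, are coupled to coenzyme A by acyl-CoA synthetases and cross into mitochondria as carnitine esters, where a spiral of dehydrogenation, hydration, a further dehydrogenation and thiolysis shortens them. Peroxisomes hold a separate set of enzymes for very-long-chain and branched substrates, and the nuclear receptor PPARα drives many genes of both organelles.

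Of the 44 genes, Ehhadh rose and Ppara fell in A178D hearts by edgeR's quasi-likelihood test with a Benjamini-Hochberg adjusted p under 0.05 over 13894 tested genes. The same rule called 2.35% of all tested genes, 1.04% higher and 1.31% lower. The other 42 genes did not pass it, while their fold changes lay mostly on the higher side: 37 of the 44 had a log2 fold change above 0, against 50.5% of all tested genes, and 32 of the 44 did without WT 3, against 51.2%. The median log2 fold change of the 44 was 0.12, against 0.0023 over all tested genes, and it was 0.06 without WT 3. At an unadjusted p under 0.05 there were 10 higher and 1 lower of the 44, against 7.93% and 8.81% of tested genes. The hearts of the genotypes did not overlap in 10 of the 44, against 16.1% of tested genes: 8 had all A178D hearts on top (7.61% of tested genes) and 2 had them all below (8.52%). In bulk tissue, fewer cells that express a gene and less of its RNA in each cell cannot be told apart.

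**Figure D1:**
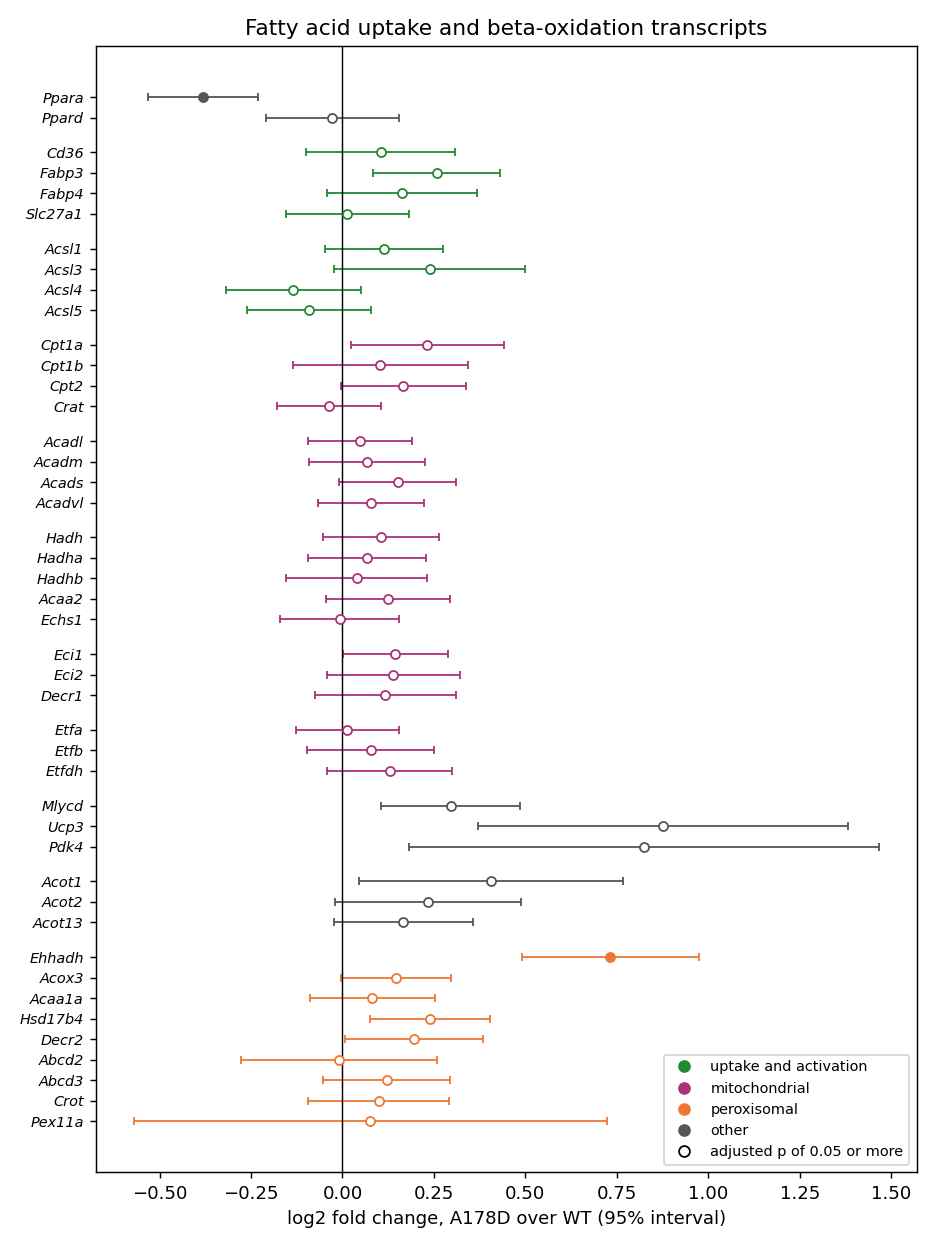
Log2 fold change (A178D over WT, horizontal axis) of the 44 genes with 95% intervals from edgeR, coloured by class and spaced by role; filled points have an adjusted p under 0.05. Ppara at -0.38 and Ehhadh at 0.73 are the filled points, and 37 of the 44 points lie to the right of 0.

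Ppara encodes PPARα, the receptor that senses fatty acids and switches on genes for their oxidation. In CPM, counts scaled to a common library size with TMM factors, Ppara stood at 148, 136 and 152 in WT 1, 3 and 4 and at 105, 117, 115 and 109 in A178D 1 to 4. The lowest WT heart was above the highest A178D heart. The mean fell from 145 ± 8.07 (SD, n = 3) to 112 ± 5.70 (SD, n = 4), a log2 fold change of -0.38 ± 0.07 (SE) with an edgeR adjusted p of 0.014. The call was lost without WT 4 (edgeR adjusted p = 0.077) and without A178D 1 (edgeR adjusted p = 0.057), with log2 fold changes of -0.35 in both fits. The gene lies at chr15:85734983-85802819 on the plus strand of GRCm38. Ppard, which encodes the related receptor PPARδ, lay between 33.8 and 40.3 CPM in the 7 hearts, with overlapping groups and a log2 fold change of -0.03 ± 0.08 (SE) whose sign turned without WT 3 and without A178D 3.

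Among the genes of uptake and binding, Fabp3, the heart-type fatty acid binding protein, was the most abundant of all 44 per kb of transcript, with 3111 CPM per kb in WT and 3719 in A178D hearts. Its levels were 2595, 2275 and 2811 CPM in WT 1, 3 and 4 and 3347, 2868, 2916 and 3112 CPM in A178D 1 to 4. Every A178D heart was above every WT heart, although A178D 2 exceeded WT 4 by little. At 0.26 ± 0.08 (SE) the log2 fold change did not pass the threshold (edgeR adjusted p = 0.12), and it was 0.12 with offsets for transcript length and GC content. Annotated exons on the opposite strand cover 19.6% of the exonic bases of Fabp3, and whether the counting used strand is not given in the sources used here. Cd36, the main carrier of long-chain fatty acids at the plasma membrane, Fabp4, the binding protein of capillary endothelium and adipocytes, and Slc27a1, a fatty acid transport protein, had log2 fold changes of 0.10, 0.16 and 0.01, and for each of them the hearts of both genotypes overlapped. Without WT 3, Cd36 came to -0.0037 and Slc27a1 to -0.03, and without A178D 4, Fabp4 came to 0.07.

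The acyl-CoA synthetases couple fatty acids to coenzyme A. Acsl1, the main form in heart, had the highest level per kb of the 4 synthetases, with 1409, 1231 and 1395 CPM in WT 1, 3 and 4 and 1497, 1497, 1521 and 1306 CPM in A178D 1 to 4. A178D 4 lay within the WT range, and the log2 fold change was 0.11 ± 0.08 (SE), or 0.05 without WT 3. Acsl3, found on lipid droplets and the endoplasmic reticulum, had a much lower level of 5.78, 6.86 and 5.88 CPM in WT 1, 3 and 4 and of 7.04, 7.21, 7.75 and 7.16 CPM in A178D 1 to 4. These groups did not overlap, but the difference of 0.24 ± 0.12 (log2, SE) did not pass the test (edgeR adjusted p = 0.35). Acsl4, which prefers arachidonic acid, was lower in every A178D heart (16.4 to 17.9 CPM) than in every WT heart (18.2 to 18.9 CPM), with a log2 fold change of -0.13 ± 0.09 (SE), or -0.06 with the length and GC offsets. Acsl5 overlapped between the genotypes at -0.09 ± 0.08 (log2, SE), or -0.05 without WT 3.

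The carnitine shuttle moves long-chain acyl groups across the mitochondrial membranes. Cpt1a, the liver form of the outer-membrane carnitine palmitoyltransferase, stood at 84.9, 71.8 and 92.5 CPM in WT 1, 3 and 4 and at 97.6, 103, 105 and 84.1 CPM in A178D 1 to 4. A178D 4 lay below WT 1 and WT 4, so that the groups overlapped, and the log2 fold change of 0.23 ± 0.10 (SE) did not pass the test (edgeR adjusted p = 0.25) and was 0.14 without WT 3. Cpt1b, the muscle form, had 8.05, 7.50 and 8.91 CPM in WT 1, 3 and 4 and 8.35, 9.14, 8.86 and 8.62 CPM in A178D 1 to 4. Its level is uncertain, because 81.4% of its exonic bases are shared on the same strand with the annotated gene Gm44502, and a counter may set aside reads that fit both genes. Gm44502 had no entry in the counts used here. For that reason the order of Cpt1a and Cpt1b cannot be read from these counts. Cpt2, the transferase of the inner membrane, had a log2 fold change of 0.17 ± 0.08 (SE), with A178D hearts at 361 to 393 CPM and WT hearts at 299 to 375 CPM, and it was 0.09 without WT 3 and 0.26 without WT 4. Crat, carnitine acetyltransferase, had a higher level per kb than Cpt1a and Cpt2 and showed 937, 809 and 877 CPM in WT 1, 3 and 4 and 859, 858, 842 and 849 CPM in A178D 1 to 4. The A178D hearts lay inside the WT range, at -0.04 ± 0.07 (log2, SE), and the value was 0.02 without WT 1.

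The acyl-CoA dehydrogenases take the first step of the mitochondrial spiral and differ in the chain length they accept. Acadm, the medium-chain enzyme, was the most abundant of them per kb, at 1755, 1547 and 1895 CPM in WT 1, 3 and 4 and 1894, 1788, 1765 and 1811 CPM in A178D 1 to 4. All A178D hearts lay within the range of the WT hearts. Acads, the short-chain enzyme, had the largest difference of the 4, with 327, 303 and 291 CPM in WT 1, 3 and 4 and 339, 328, 321 and 376 CPM in A178D 1 to 4. A178D 3 lay below WT 1, and the log2 fold change was 0.15 ± 0.07 (SE, edgeR adjusted p = 0.33). It was 0.10 without A178D 4 and 0.08 with the length and GC offsets. Acadl and Acadvl, for long and very long chains, were at 0.05 and 0.08 on the log2 scale and at -0.01 and 0.02 with these offsets. Exons of Dvl2 on the opposite strand cover 42.9% of the exonic bases of Acadvl.

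The next steps are carried by Echs1, the short-chain hydratase, by Hadha and Hadhb, the subunits of the trifunctional protein, by Hadh, the hydroxyacyl-CoA dehydrogenase, and by Acaa2, the mitochondrial thiolase. Hadhb, the most abundant per kb in WT hearts, had 1664, 1334 and 1728 CPM in WT 1, 3 and 4 and 1778, 1577, 1611 and 1507 CPM in A178D 1 to 4. WT 3 stood below the other 6 hearts, which were intermixed. Acaa2 had 1128, 981 and 1249 CPM in WT 1, 3 and 4 and 1253, 1185, 1186 and 1258 CPM in A178D 1 to 4. The groups overlapped through WT 4, and the log2 fold change of 0.13 ± 0.08 (SE, edgeR adjusted p = 0.46) was 0.04 without WT 3, 0.21 without WT 4 and 0.03 with the length and GC offsets. Hadh, Hadha, Hadhb and Echs1 lay at 0.10, 0.07, 0.04 and -0.01 on the log2 scale, and without WT 3 the first 3 came to 0.02, -0.02 and -0.07. Echs1 came to -0.08 without WT 1 and to 0.06 without WT 4.

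Eci1, Eci2 and Decr1 handle the double bonds of unsaturated chains. Eci1, an enoyl-CoA isomerase, was the most abundant of these per kb, with 288, 277 and 295 CPM in WT 1, 3 and 4 and 311, 312, 303 and 342 CPM in A178D 1 to 4. Each A178D heart was above each WT heart, with a log2 fold change of 0.14 ± 0.07 (SE) and an edgeR adjusted p of 0.30, and the value was 0.03 with the length and GC offsets. Eci2 and Decr1 had log2 fold changes of 0.14 and 0.12 with overlapping hearts, and of 0.09 and 0.01 without WT 3. Electrons from the dehydrogenases pass through the electron transfer flavoprotein, whose subunits are encoded by Etfa and Etfb, to the ubiquinone oxidoreductase encoded by Etfdh. Etfa was at 0.01 on the log2 scale and at -0.07 with these offsets. Etfb had 638, 680 and 699 CPM in WT 1, 3 and 4 and 695, 671, 656 and 816 CPM in A178D 1 to 4, and apart from A178D 4 the genotypes were intermixed. Its log2 fold change was 0.08 with the main settings, -0.05 with the same offsets and 0.0032 without A178D 4, and 58.2% of its exonic bases are shared on the same strand with Gm45233 and Mir7051. Etfdh stood at 963, 808 and 996 CPM in WT 1, 3 and 4 and at 1074, 990.5, 1018 and 951 CPM in A178D 1 to 4. A178D 4 was below WT 1 here, and the log2 fold change was 0.13 ± 0.08 (SE), or 0.04 without WT 3.

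Mlycd, Ucp3 and Pdk4 act beside the mitochondrial spiral, and Ucp3 and Pdk4 had the highest log2 fold changes of the 44 genes. Ucp3, an uncoupling protein of the inner membrane that responds to fatty acid load, had 62.3, 51.2 and 129 CPM in WT 1, 3 and 4 and 156, 165, 152 and 119 CPM in A178D 1 to 4. WT 1 and WT 3 were below every A178D heart, while WT 4 was above A178D 4. Its log2 fold change of 0.88 ± 0.24 (SE) did not pass the threshold (edgeR adjusted p = 0.072), nor did it in DESeq2 (adjusted p = 0.19). It passed with limma-voom (adjusted p = 0.035), with no filter on low counts (edgeR adjusted p = 0.024) and without WT 4 (log2 fold change 1.39, edgeR adjusted p = 0.0022). The lowest and highest edgeR adjusted p on leaving out a heart were 0.0022 and 0.26. Pdk4, the kinase that switches off pyruvate dehydrogenase and so spares glucose, had 346, 136 and 497 CPM in WT 1, 3 and 4 and 624, 648, 637 and 403 CPM in A178D 1 to 4. The WT hearts were widely spread, and A178D 4 lay between WT 1 and WT 4. Its log2 fold change of 0.82 ± 0.30 (SE, edgeR adjusted p = 0.18) moved to 0.45 without WT 3 and to 1.261 without WT 4. Mlycd, malonyl-CoA decarboxylase, which removes the inhibitor of carnitine palmitoyltransferase, had 137, 116 and 151 CPM in WT 1, 3 and 4 and 151, 170, 169 and 171 CPM in A178D 1 to 4. Every A178D heart was above every WT heart, A178D 1 above WT 4 by less than 1 CPM. The log2 fold change of 0.30 ± 0.09 (SE) did not pass the test in edgeR (adjusted p = 0.10) or limma-voom (adjusted p = 0.094) and passed in DESeq2 (adjusted p = 0.039).

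Acyl-CoA thioesterases release free fatty acids from coenzyme A. Acot1, the cytosolic form, had 10.9, 6.75 and 13.02 CPM in WT 1, 3 and 4 and 13.9, 14.0, 12.8 and 13.4 CPM in A178D 1 to 4. Its neighbour Acot2, the mitochondrial form, had 82.6, 59.6 and 91.8 CPM in WT 1, 3 and 4 and 84.6, 98.2, 96.2 and 87.7 CPM in A178D 1 to 4. WT 3 was the lowest heart for both genes, and both overlapped through WT 4. The log2 fold changes were 0.41 ± 0.17 (SE) for Acot1 and 0.23 ± 0.12 (SE) for Acot2, with edgeR adjusted p values of 0.25 and 0.34. They came to 0.18 and 0.07 without WT 3 and to 0.61 and 0.37 without WT 4. Acot1 and Acot2 are near-identical copies in the same gene cluster, so that reads may be split between them and the values of both are uncertain. Acot13 had 226, 264 and 280 CPM in WT 1, 3 and 4 and 303, 263, 271 and 316 CPM in A178D 1 to 4. A178D 2 and A178D 3 lay inside the WT range, and the log2 fold change was 0.17 ± 0.09 (SE), or 0.03 with the length and GC offsets and 0.09 without WT 1.

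**Figure D2:**
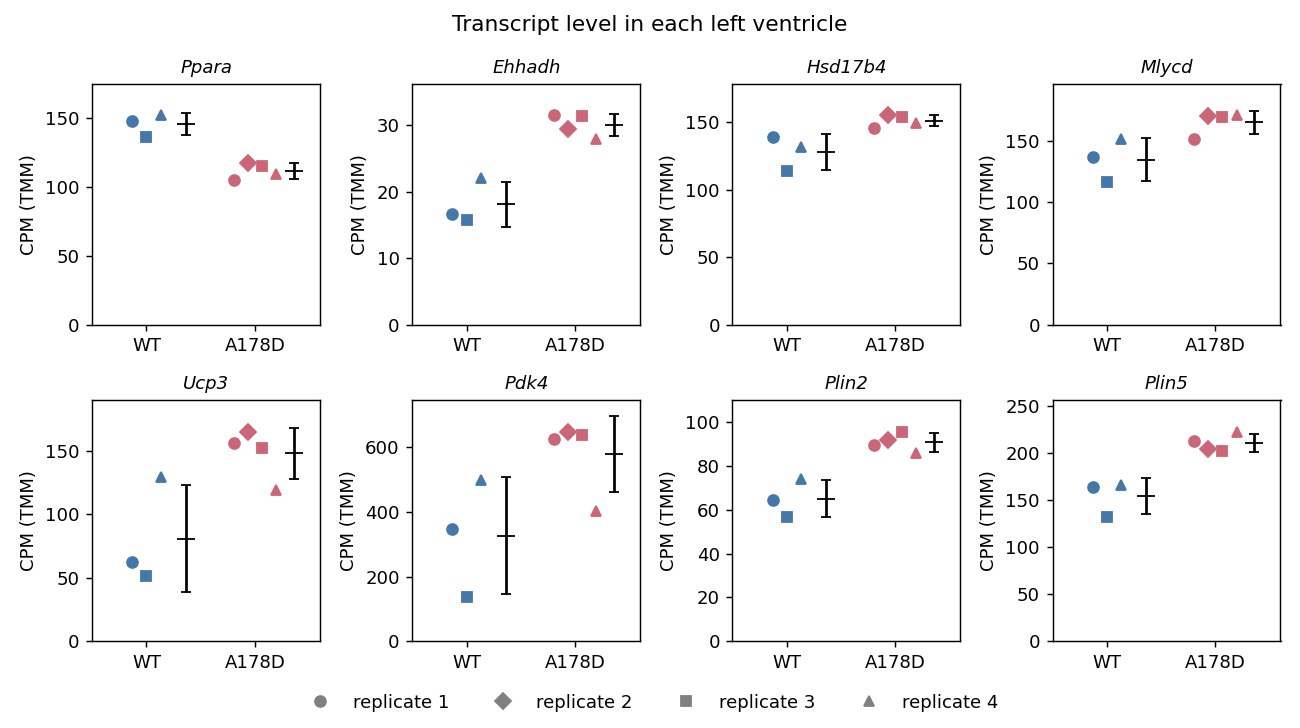
Level (CPM, TMM-scaled, axes from 0) of 8 genes in each WT (blue) and A178D (red) heart, with symbols for the replicate number and black bars for the mean ± SD of each genotype. Ppara is lower and Ehhadh, Hsd17b4, Mlycd, Plin2 and Plin5 are higher in every A178D heart than in any WT heart, while WT 4 reaches the A178D hearts for Ucp3 and Pdk4; Hsd17b4, Mlycd, Ucp3 and Pdk4 have an edgeR adjusted p of 0.05 or more.

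Among the peroxisomal genes, Ehhadh encodes the bifunctional enzyme that hydrates and dehydrogenates straight-chain and dicarboxylic acyl-CoAs, and it is a classic target of PPARα. It stood at 16.6, 15.7 and 22.0 CPM in WT 1, 3 and 4 and at 31.5, 29.4, 31.3 and 27.9 CPM in A178D 1 to 4. The groups did not overlap, with the lowest A178D heart above the highest WT heart. The mean rose from 18.1 ± 3.39 (SD, n = 3) to 30.01 ± 1.69 CPM (SD, n = 4), a log2 fold change of 0.73 ± 0.11 (SE) with an edgeR adjusted p of 0.0059. It was called in each of the 7 fits that left out a heart, with edgeR adjusted p values up to 0.0495. The gene lies at chr16:21761287-21787807 on the minus strand. Hsd17b4, the other bifunctional enzyme, which serves branched and very long chains, had 139, 113 and 131 CPM in WT 1, 3 and 4 and 146, 155, 153 and 149 CPM in A178D 1 to 4. Its hearts did not overlap, and its log2 fold change of 0.24 ± 0.08 (SE) did not pass the test (edgeR adjusted p = 0.13). Decr2, the peroxisomal dienoyl-CoA reductase, had 16.5, 18.8 and 16.6 CPM in WT 1, 3 and 4 and 20.2, 19.8, 19.6 and 19.7 CPM in A178D 1 to 4, again without overlap. The log2 fold change of Decr2 was 0.19 ± 0.09 (SE, edgeR adjusted p = 0.28).

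Abcd3, a transporter of acyl-CoAs into the peroxisome, was the most abundant peroxisomal gene of the list per kb, with 201, 169 and 203 CPM in WT 1, 3 and 4 and 209, 211, 221 and 189 CPM in A178D 1 to 4. A178D 4 lay below WT 1 and WT 4, and the log2 fold change of 0.12 was 0.04 without WT 3. Acox3, an oxidase of branched chains, lay at 38.8 to 41.2 CPM in WT and 43.3 to 45.0 CPM in A178D hearts, with no overlap and a log2 fold change of 0.15 ± 0.07 (SE). Acaa1a, a peroxisomal thiolase, Crot, carnitine octanoyltransferase, Abcd2, a transporter related to Abcd3, and Pex11a, which promotes peroxisome division, overlapped between the genotypes, with log2 fold changes from -0.01 for Abcd2 to 0.10 for Crot. The sign for Abcd2 turned without WT 1, WT 3, A178D 2 or A178D 3 and, at 0.05, with the length and GC offsets, and that for Pex11a without WT 4. Without A178D 4 Acaa1a came to 0.01, and without A178D 1 Crot came to 0.04. Pex11a was the least abundant of the 44, at 0.69 to 1.02 CPM. Its 95% interval ran from -0.57 to 0.72 on the log2 scale, so that the direction of a change could not be read.

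Mitochondrial, peroxisomal and uptake genes were set side by side. The median log2 fold change was 0.10 over the 19 genes of the mitochondrial shuttle and spiral, 0.12 over the 9 peroxisomal genes and 0.11 over the 8 genes of uptake and activation, against 0.0023 over all tested genes. With the length and GC offsets the medians were 0.07, 0.12 and 0.13. Above 0 lay 17 of the 19, 8 of the 9 and 6 of the 8. No mitochondrial gene was called by edgeR, DESeq2 or limma-voom, and the number at an unadjusted p under 0.05 was 2 of the 19 in edgeR and 3 in each of the other tools, where edgeR had 2.35% of all tested genes called and 16.7% at this unadjusted p. Likewise 0 of the 8 uptake and activation genes were called by any of these tools, with 1 at an unadjusted p under 0.05 in each. Ehhadh was called by all 3 tools and was the only peroxisomal gene of the 9 called by any of them, 3 of the 9 had an unadjusted p under 0.05 in each, and without Ehhadh the peroxisomal median was 0.11. The difference between the medians was not tested.

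As the mean log2 deviation of a class from its 7-heart mean, the peroxisomal genes stood at -0.07, -0.14 and -0.11 in WT 1, 3 and 4 and at 0.10, 0.06, 0.08 and 0.09 in A178D 1 to 4. Without Ehhadh the peroxisomal values were -0.02, -0.08 and -0.11 in the WT hearts and 0.06, 0.03, 0.04 and 0.07 in the A178D hearts, which still did not overlap. The mitochondrial genes stood at -0.04, -0.17 and 0.05 in the WT hearts and at 0.08, 0.02, 0.02 and 0.05 in the A178D hearts, so that WT 4 lay among the A178D hearts. For uptake and activation the WT hearts were at -0.07, -0.10 and 0.02 and the A178D hearts at 0.03, 0.03, 0.06 and 0.03, with WT 4 just below the lowest A178D heart. WT 3 was the lowest of the 7 hearts for 26 of the 44 genes, including 15 of the 19 mitochondrial genes, against 12.6% of all tested genes. Over all tested genes A178D 4 was most often the lowest heart (24.3%) and most often the highest (3240 of 13894). Among the 44 genes it was the lowest for 0 and the highest for 11. Without WT 3 the medians came to 0.04 for mitochondrial, 0.11 for peroxisomal and 0.03 for uptake and activation genes, and without WT 4 to 0.14, 0.17 and 0.16.

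**Figure D3:**
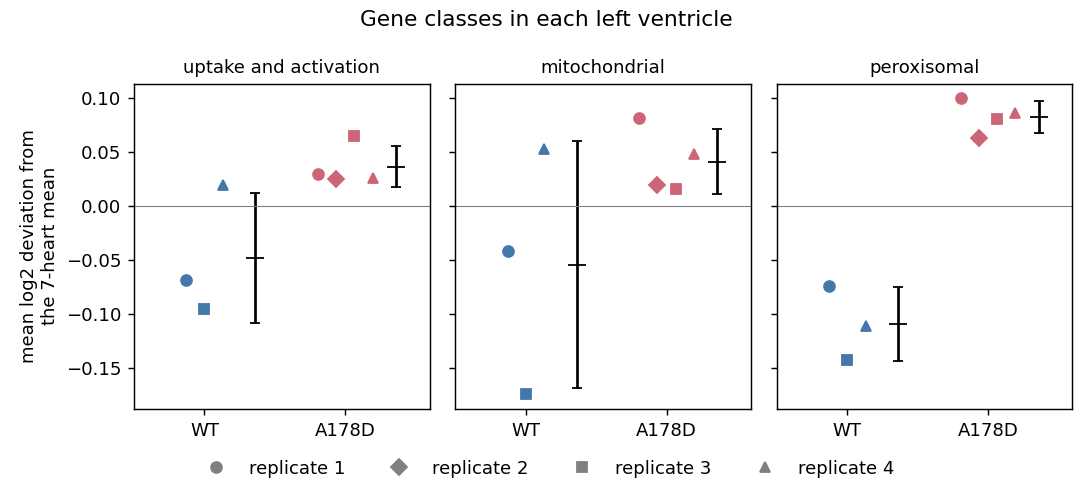
Mean log2 deviation of the genes of each class from their 7-heart mean (vertical axis) in each WT (blue) and A178D (red) heart, with black bars for the mean ± SD of each genotype. Peroxisomal genes stand at -0.14 to -0.07 in WT and at 0.06 to 0.10 in A178D hearts, while for mitochondrial genes WT 4 at 0.05 lies among the A178D hearts and WT 3 at -0.17 lies below all others.

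Per kb of transcript, mitochondrial genes held the largest part of the 3 classes. Summed over the class, mitochondrial genes held 7755 ± 609 CPM per kb in the 3 WT hearts and 8169 ± 242 CPM per kb (mean ± SD) in the 4 A178D hearts. Uptake and activation genes held 4862 ± 484 and 5623 ± 296 CPM per kb, and peroxisomal genes 187 ± 9.12 and 211 ± 2.01. As a share of the 3 classes together, uptake and activation took 37.4 to 38.4% in WT and 39.4 to 41.0% in A178D hearts, which did not overlap, and mitochondrial genes 60.2 to 61.1% and 57.6 to 59.1%. Peroxisomal genes took 1.39 to 1.52% in WT and 1.43 to 1.57% in A178D hearts, which overlapped. Fabp3 held 64.0% of the uptake and activation sum in WT and 66.1% in A178D hearts, and with Fabp3 left out the share of uptake and activation was 17.9 to 18.3% in WT and 18.2 to 19.1% in A178D hearts, with overlap. After Fabp3, the highest mean levels per kb in WT hearts were those of Acadm at 846, Hadhb at 775, Etfb at 753, Cd36 at 740 and Acaa2 at 738 CPM per kb. The place of Etfb is uncertain, because 58.2% of its exonic bases are shared on the same strand with other annotated genes. Ehhadh was at 6.07 CPM per kb in WT and 10.1 in A178D hearts, so the called gene had a low level beside Abcd3 at 54.8 and Hsd17b4 at 47.6 CPM per kb in WT.

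Further genes of the same pathways were read from lists written by gene symbol. Of other genes of uptake, activation and lipid droplets, 15 of 17 were tested and 1 was called, against 2.35% of all tested genes: Plin5, which ties lipid droplets to mitochondria. Plin5 had 164, 132 and 166 CPM in WT 1, 3 and 4 and 213, 204, 202 and 223 CPM in A178D 1 to 4, without overlap. It rose by 0.45 ± 0.09 (log2, SE, edgeR adjusted p = 0.016), and the call was lost without WT 3 (edgeR adjusted p = 0.088) and without A178D 1 (edgeR adjusted p = 0.057). Lpl, the lipase that frees fatty acids in the capillary, was the most abundant gene of this list and overlapped, with 4922 to 5773 CPM in WT and 4898 to 5169 CPM in A178D hearts. The list for mitochondrial beta-oxidation held 14 other genes, not all with mitochondrial products, such as the cytosolic Acaca. Of these 14, 0 were called by edgeR, DESeq2 or limma-voom, and 5 had an unadjusted p under 0.05 in each tool. In edgeR 3 of these 5 lay above and 2 below 0, where 7.93% and 8.81% of all tested genes did so at this unadjusted p. Above 0 lay 8 of the 14, against 50.5% of all tested genes. Among them Slc25a20, the carnitine-acylcarnitine carrier, had 294.4 to 330 CPM in A178D against 216.7 to 294.2 CPM in WT hearts, the groups being less than 1 CPM apart, and an edgeR adjusted p of 0.24. Acad11, a dehydrogenase of long chains, had 315 to 372 CPM in A178D and 273 to 311 CPM in WT hearts, without overlap, and an edgeR adjusted p of 0.14. Acss1, a mitochondrial acetyl-CoA synthetase, was lower in every A178D heart, with 378 to 409 CPM against 434 to 450 CPM in WT and an edgeR adjusted p of 0.19. Acad10, a relative of the acyl-CoA dehydrogenases, had a log2 fold change of -0.35 ± 0.13 (SE, edgeR adjusted p = 0.18).

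Of 23 other peroxisomal genes 18 were tested, and 15 lay above 0 with a median log2 fold change of 0.10. EdgeR and limma-voom called 0 of the 18, with 4 at an unadjusted p under 0.05 in each. Over all tested genes 50.5% lay above 0, and edgeR had 2.35% called and 16.7% at this unadjusted p. DESeq2 called 1 of the 18 higher, Cat, where it called 306 of all 13894 tested genes higher. Cat, the catalase that removes hydrogen peroxide, had 316, 273 and 327 CPM in WT 1, 3 and 4 and 394, 366, 375 and 343 CPM in A178D 1 to 4. These hearts did not overlap, and the log2 fold change was 0.28 ± 0.08 (SE, edgeR adjusted p = 0.088). Among 18 peroxins and related membrane proteins, which build the peroxisome, 15 lay above 0 with a median of 0.12, and in 7 every A178D heart was above every WT heart, against 7.61% of all tested genes. None of the 18 was called by edgeR, DESeq2 or limma-voom, and 4 had an unadjusted p under 0.05 in each, against 16.7% of all tested genes in edgeR.

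Of 18 partners and coactivators of PPAR receptors, 7 lay above 0 and 0 were called by edgeR and limma-voom. At an unadjusted p under 0.05 there were 3 in edgeR and 4 in limma-voom. Over all tested genes 50.5% lay above 0, and edgeR had 2.35% called and 16.7% at this unadjusted p. DESeq2 called Ppargc1a and Klf15 lower, where it called 380 of all 13894 tested genes lower. Ppargc1a, the coactivator PGC-1α of mitochondrial biogenesis, had 137, 149 and 164 CPM in WT 1, 3 and 4 and 127, 126, 122 and 110 CPM in A178D 1 to 4, without overlap. Its log2 fold change was -0.31 ± 0.08 (SE, edgeR adjusted p = 0.061), and that of Klf15, a factor that works with PPARα on lipid genes, was -0.49 ± 0.12 (SE, edgeR adjusted p = 0.052). For Klf15 the hearts overlapped, with A178D 4 at 69.8 CPM above WT 1 at 65.7 CPM.

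Of 18 other targets of PPARα, 13 were tested, 9 lay above 0 and 4 were called, against 50.5% and 2.35% of all tested genes. Plin2, the coat protein of lipid droplets, had 64.3, 56.9 and 74.1 CPM in WT 1, 3 and 4 and 89.6, 91.9, 95.7 and 85.9 CPM in A178D 1 to 4, without overlap. It rose by 0.48 ± 0.09 (log2, SE) with an edgeR adjusted p of 0.014, which became 0.089 without WT 3. Plin4, a related coat protein, was lower in every A178D heart (237 to 257 CPM) than in every WT heart (267 to 366 CPM), with a log2 fold change of -0.28 ± 0.10 (SE, edgeR adjusted p = 0.18). Cidea, another lipid droplet protein, rose by 0.43 ± 0.08 (log2, SE, edgeR adjusted p = 0.018) and Gpd1, the cytosolic glycerol-3-phosphate dehydrogenase, by 0.31 ± 0.07 (log2, SE, edgeR adjusted p = 0.036). Cyp4b1, a cytochrome P450 that hydroxylates fatty acids, fell, with a log2 fold change of -0.40 ± 0.09 (SE, edgeR adjusted p = 0.034). For Cidea, Gpd1 and Cyp4b1 the hearts of the genotypes did not overlap. The call of Cidea was lost without WT 3, without WT 4, without A178D 1 and without A178D 3, with edgeR adjusted p values of 0.12, 0.072, 0.057 and 0.054, and with the length and GC offsets (edgeR adjusted p = 0.083). Those of Gpd1 and Cyp4b1 were lost without WT 3, WT 4, A178D 1, A178D 2 or A178D 3, with edgeR adjusted p values of 0.20, 0.12, 0.11, 0.054 and 0.095 for Gpd1 and 0.19, 0.13, 0.12, 0.054 and 0.095 for Cyp4b1. Angptl4, the secreted inhibitor of lipoprotein lipase, had 3.86, 4.09 and 17.6 CPM in WT 1, 3 and 4 and 24.4, 22.6, 17.8 and 12.7 CPM in A178D 1 to 4. As with Ucp3 and Pdk4, WT 4 stood with the A178D hearts and A178D 4 was the lowest of its group, and the adjusted p was 0.16 in edgeR, 0.33 in DESeq2 and 0.035 in limma-voom.

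The promoters of Ucp3 and Ehhadh are shown because Ehhadh was the gene called higher, Ucp3 had the highest log2 fold change, and both are known targets of PPARα, which binds, with its partner RXR, repeats of AGGTCA. In the 250 bases before the start, taken from RefSeq (GRCm38.p6), AGGTCA on either strand was found in 6 of the 36 listed genes with an entry that were searched, namely Acadm, Cd36, Ucp3, Echs1, Acadvl and Cpt1a, and in 14.0% of 32851 promoters of the same length. The window of Ucp3 (chr7:100472741-100472990, plus strand) holds the motif, in capitals, starting 149 and 44 bases before the end of the window, and that of Ehhadh (chr16:21787835-21788084, minus strand) holds none in these letters. A match describes the letters only. The motif counted here is a single copy, not the repeat that the receptor binds. Of the 32851 promoters, 11 (0.033%) held 2 copies in a row with a single base between them. The 2 copies in Ucp3, at 149 and 44 bases, do not lie side by side and are not such a repeat.
Ucp3: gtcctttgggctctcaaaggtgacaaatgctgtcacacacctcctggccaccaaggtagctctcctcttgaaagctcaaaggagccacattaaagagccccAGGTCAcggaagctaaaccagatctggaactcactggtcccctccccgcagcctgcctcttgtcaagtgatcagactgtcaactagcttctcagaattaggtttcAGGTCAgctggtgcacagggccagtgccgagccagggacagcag
Ehhadh: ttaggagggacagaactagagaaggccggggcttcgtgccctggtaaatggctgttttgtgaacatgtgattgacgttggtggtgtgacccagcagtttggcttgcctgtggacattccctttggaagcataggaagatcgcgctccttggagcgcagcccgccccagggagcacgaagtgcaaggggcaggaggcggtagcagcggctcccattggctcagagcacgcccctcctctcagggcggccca

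The cardiomyocyte markers were abundant. Of 13 cardiomyocyte genes the most abundant, Myh6, had 35695 to 41671 CPM, the list summed to 140032 to 148071 CPM in WT and 140483 to 152752 CPM in A178D hearts, and its median log2 fold change was 0.02. In this list 7 lay above 0, against 50.5% of all tested genes. Mybpc3, a protein of the thick filament, rose by 0.30 ± 0.06 (log2, SE, edgeR adjusted p = 0.023), where edgeR called 1.04% of all tested genes higher. The call of Mybpc3 was lost without WT 3, WT 4, A178D 1 or A178D 3 (edgeR adjusted p = 0.11, 0.12, 0.088 and 0.051). Every A178D heart was above every WT heart for 3 of the 13 genes and below for 2, Myh6 and Atp2a2. Over all tested genes these shares were 7.61% and 8.52%. Myl2, the ventricular light chain, had 11942 to 14102 CPM. Of 7 atrial markers 4 were tested, 2 lay above 0 and Nppa was called higher by edgeR. That call was lost without WT 3, WT 4 or A178D 1 (edgeR adjusted p = 0.085, 0.060 and 0.056). Kcna5 and Nr2f2 were lower in every A178D heart than in every WT heart, and DESeq2 called Nr2f2 lower (adjusted p = 0.041). Bmp10 had no counts. The sum of the atrial list, led by Nppa, was 148 to 289 CPM in WT and 358 to 625 CPM in A178D hearts. Acta1, the skeletal actin of the stressed heart, was at 69.3 to 183 CPM in WT and 495 to 811 CPM in A178D hearts, and Nppa, the atrial natriuretic peptide, at 109 to 249 and 322 to 588 CPM. Ttn itself, which the missense change leaves in place, was at 6247 to 7245 CPM in WT and 4087 to 6490 CPM in A178D hearts. The genotypes did not overlap for Acta1 and Nppa and overlapped for Ttn. Its log2 fold change was -0.27 ± 0.12 (SE, edgeR adjusted p = 0.29), or -0.15 without A178D 4. The genes Ddx3y (75.2 to 119 CPM), Eif2s3y, Uty and Kdm5d of the Y chromosome were expressed in all 7 hearts, as in male mice.

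Genes of other cells and of the daily clock differed between the same hearts, and their part in the results for fatty acid genes was not tested. Of all tested genes, 50.5% lay above 0, and edgeR called 1.04% higher and 1.31% lower. Of 10 macrophage genes all lay above 0 and 2 were called higher by edgeR, Lyz2 being the most abundant, and the list summed to 316, 406 and 371 CPM in WT 1, 3 and 4 and to 454, 454, 409 and 463 CPM in A178D 1 to 4. Macrophages also express Plin2. Of 12 smooth muscle and pericyte genes 11 lay below 0 and 6 were called lower, while the sum, led by Des of cardiomyocytes, was 3864 to 3970 CPM in WT and 3468 to 4050 CPM in A178D hearts and, without Des, 1426 to 1461 and 1025 to 1286 CPM, which did not overlap. Of 14 endothelial genes 7 lay above 0 and Flt1 was called lower, the most abundant was Aqp1, and the sums were 2020 to 2174 CPM in WT and 1772 to 1961 CPM in A178D hearts; without Aqp1 they were 1394 to 1571 and 1435 to 1504 CPM, which overlapped. Endothelium expresses Cd36 and Fabp4. Of 9 fibroblast genes 7 lay above 0 and Col3a1 was called higher, and with Dcn as the most abundant the sums were 1170 to 1297 CPM in WT and 1364 to 1508 CPM in A178D hearts. Among adipocyte genes Adipoq was at 0.02 to 0.44 CPM and Plin1 at 0.08 to 0.46 CPM, 4 of the 8 tested lay above 0, and Thrsp was the gene called higher. Thrsp stood far above Adipoq and Plin1, at 22.0 to 28.1 CPM in WT and 36.1 to 39.0 CPM in A178D hearts. Which cells express Thrsp here was not tested. With Lipe as their most abundant gene the adipocyte genes summed to 77.1 to 101 CPM in WT and 94.7 to 104 CPM in A178D hearts. Of 6 tested erythrocyte genes, led by Hbb-bs, 0 were called by edgeR, DESeq2 or limma-voom, with 1 at an unadjusted p under 0.05 in each, and the sums were 107 to 115 CPM in WT and 94.5 to 154 CPM in A178D hearts.

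Ppara is known to follow the daily clock. Of 10 clock genes of the Per phase, 7 lay below 0 and Tef, Hlf, Per2 and Per3 were called lower by edgeR. Over all tested genes 50.5% lay above 0, and edgeR called 1.04% higher and 1.31% lower. Nr1d1 went the other way, with a log2 fold change of 0.51 (edgeR adjusted p = 0.072). DESeq2 called Nr1d1 higher (adjusted p = 0.0073) and, beside the 4 genes, Nr1d2 lower. The list, led by Tef, summed to 1183, 1182 and 1219 CPM in WT 1, 3 and 4 and to 924, 1045, 1120 and 1084 CPM in A178D 1 to 4. Of 5 genes of the Bmal1 phase, Arntl was called higher and Cry1 lower, and the sums, with Clock as the most abundant, were 68.7 to 75.3 CPM in WT and 62.3 to 87.9 CPM in A178D hearts. Of 8 genes of the glucocorticoid response, 5 lay below 0 with a median over the 8 of -0.23, and Zbtb16 was called lower and Cdkn1a higher. The most abundant of these 8 was Pdk4, and their sums were 688 to 1042 CPM in WT and 855 to 1099 CPM in A178D hearts, or 453 to 552 and 350 to 462 CPM without Pdk4. Among the edgeR calls of genes on the lists for other cells, the clock and the glucocorticoid response, those of Thrsp, Zbtb16, Acta2 and Tagln were kept in each of the 7 fits that left out a heart. Every other one was lost in at least 1 of these fits. The hour of sampling is not given in the sources used here, and whether these genes bear on Ppara, Pdk4 or Ucp3 was not tested.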

How the data were processed

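RNA of 3 WT and 4 homozygous A178D left ventricles was measured by RNA sequencing. The deposited values are raw counts per gene; the submitters' processing notes name bcl2fastq 2.18.0.12, HISAT2 2.1.0, SAMtools 1.6, DESeq2 1.26.0 and build GRCm38, and the counting program and annotation are not given in the sources used here. A second deposited table of normalized values was not used here. Identifiers were matched to GENCODE M21 (GRCm38): 268 of 21257 entries had no name. Of 442 entries in 219 sets with identical counts, 223 were dropped to keep 1 entry per set, as were 107 repeats with low counts, and 20927 stayed; none of the 44 genes was in such a set. In the entries that stayed, the 7 libraries held 33080675 to 54245530 counts, and tested genes took 99.986% of them.

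The fit used edgeR 4.0.16 in R 4.3.3 (TMM, glmQLFit, glmQLFTest, no covariate) and tested a gene if 3 or more libraries had a count of 10 or more. P values were adjusted by Benjamini-Hochberg over 13894 genes, with a call at an adjusted p under 0.05. Standard errors and 95% intervals are those of its log2 fold changes and reflect both the spread between hearts and the depth. CPM per kb used the length of the transcript with the longest coding part. The members and all lists were chosen with earlier results of these data known. Alternatives were DESeq2 1.42.0, limma-voom (limma 3.58.1), DESeq2 size factors in edgeR, other filters, the table as deposited, an adjusted p under 0.01, the replicate number as a block, offsets for length and GC content (mgcv 1.9.3), and leaving out each heart. Counts halved and rounded up were added after seeing the data, since odd numbers made up only 17.6 to 20.3% of counts from 1 to 20. The scripts were tested on a simulated set with 200 of 13894 genes changed by 1 on the log2 scale. False calls made up 3.2% of the calls in edgeR and 3.7% in limma-voom. They made up 9.6% in DESeq2 and 9.1% with the replicate block, above the nominal rate.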

Additional observations from a re-analysis of the deposited data

Results flagged for a closer look

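In 5 of 55 groups of 4 A178D hearts, a heart stood far from the other 3 of its group, where chance gives about 1 in 20. Pdk4 was at 402.9 CPM in A178D 4 and at 623.6 to 647.7 CPM in the other A178D hearts. Acsl1 was at 1306 CPM in A178D 4 and at 1497 to 1521 CPM in the others. Acaa1a was at 88.6 CPM in A178D 4 and at 72.79 to 74.92 CPM in the others, the only high value of the 5. Mlycd was at 151.4 CPM in A178D 1 and at 169.3 to 171.2 CPM in the others. Gpd1 was at 103.8 CPM in A178D 2 and at 111.3 to 112.4 CPM in the others. Groups of 3 WT hearts were not examined in this way.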

How the results depend on the processing

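The call of Ehhadh was kept under every alternative, with log2 fold changes from 0.64 to 0.89, and that of Ppara was lost on leaving out WT 4 or A178D 1 and at an adjusted p under 0.01. DESeq2 called 686 genes (306 higher, 380 lower) against 327 in edgeR (145 higher, 182 lower), 321 of them shared, and 2 of the 44 genes higher, Ehhadh and Mlycd. Limma-voom, no filter on low counts and the replicate block each called 2 of them higher, Ehhadh and Ucp3. The block left Gpd1, Mybpc3, Flt1 and the smooth muscle gene Cnn1 uncalled (edgeR adjusted p = 0.068, 0.0574, 0.073 and 0.062). With the length and GC offsets it left Plin2 and Cidea uncalled (edgeR adjusted p = 0.068 and 0.128). The same fit left Flt1, Lyz2, Cnn1 and Mylk of smooth muscle uncalled (edgeR adjusted p = 0.073, 0.064, 0.060 and 0.068). The block with these offsets gave class medians of 0.056 for mitochondrial, 0.123 for peroxisomal and 0.146 for uptake and activation genes. The hearts share only a number: hearts with the same number in both genotypes had deviations correlated at 0.003, -0.040 and -0.042, and no WT heart correlated best with its own number. An adjusted p under 0.01 left 64 genes, and 0 of the 44 lower. Leaving out each heart in turn gave 56 (without WT 3) to 453 (without WT 1) genes, 1 to 2 of the 44 higher and 0 to 1 lower, medians of 0.037 to 0.136 for mitochondrial, 0.108 to 0.167 for peroxisomal and 0.025 to 0.162 for uptake and activation genes. Among the 44 genes the sign turned in 13. With the replicate block, log2 fold changes stood for Abcd2 at 0.011, Echs1 at 0.015 and Slc27a1 at -0.0083. With length and GC offsets they stood for Abcd2 at 0.054, Acadl at -0.010, Echs1 at 0.00296, Etfa at -0.069, Etfb at -0.053 and Slc27a1 at -0.013, and with the block and offsets together for Abcd2 at 0.092, Acadl at -0.00602, Echs1 at 0.035, Etfa at -0.066, Etfb at -0.042 and Slc27a1 at -0.024. On leaving out each heart they ran from -0.085 to 0.062 for Abcd2, -0.0051 to 0.099 for Acadl, -0.0083 to 0.136 for Acadm, -0.0037 to 0.184 for Cd36, -0.091 to 0.018 for Crat, -0.082 to 0.065 for Echs1, -0.018 to 0.062 for Etfa, -0.018 to 0.118 for Hadha, -0.068 to 0.110 for Hadhb, -0.050 to 0.215 for Pex11a, -0.097 to 0.028 for Ppard and -0.027 to 0.094 for Slc27a1. The cause of these shifts was not tested. With 3 and 4 hearts small changes may be missed, and for Pex11a, the gene of lowest level, depth may limit what can be seen too. Neither limit was tested at the sizes of change seen here.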
